A study of Mus musculus with 12 samples.

Results

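The vascular and endothelial genes of this series are 10 genes, read by 16 probes out of 55681 distinct probes with 34836 gene names, and each was found by the gene name printed with the array's probes. They are the growth factor *Vegfa*, its receptors *Flt1* and *Kdr*, the angiopoietin receptor *Tek*, the endothelial surface proteins *Pecam1*, *Cdh5* and *Vcam1*, the blood and endothelial regulator *Tal1*, the lipid kinase *Sphk1* and the GTPase-activating protein *Arhgap22*. *Arhgap22* and *Sphk1* were chosen by their dependence on genotype in XEN-like cells and *Vcam1* was chosen by its rise after dexamethasone, so those values are given as a description with no test. The other 7 were chosen by function.

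RNA was taken from mouse ES cells that carry Gata6GR, a Gata6 fused to the glucocorticoid receptor that becomes active when dexamethasone (Dex) is added, and 4 groups of 3 one-colour arrays were made. The groups were *Sox7* (+/−) ES cells without Dex, *Sox7* (+/−) XEN-like cells after 4 days with Dex, *Sox7* (−/−) ES cells without Dex and *Sox7* (−/−) XEN-like cells after 4 days with Dex. XEN-like cells resemble extraembryonic endoderm, the lineage that forms the yolk sac endoderm and parietal endoderm. All 4 groups carry Gata6GR and at least 1 targeted *Sox7* allele, there was no wild-type group, and the *Sox7* (−/−) cells were selected from the *Sox7* (+/−) Gata6GR line with a high concentration of puromycin, so each genotype is 1 line. No cells lacking Gata6GR received Dex, so an effect of Dex and an effect of Gata6 cannot be told apart.

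VEGF signals through the receptor tyrosine kinases encoded by *Kdr* and *Flt1*, where Kdr carries most of the signal for endothelial growth and Flt1 binds the ligand tightly and can act as a decoy. Tek is the receptor of the angiopoietins, Pecam1 and Cdh5 (VE-cadherin) hold endothelial cells together, and Vcam1 is bound by integrins of blood cells. Sphk1 makes sphingosine 1-phosphate, a lipid signal that acts on endothelial cells through the S1pr receptors. Extraembryonic endoderm lies next to the first blood vessels of the yolk sac and is known as a source of Vegfa, and Sox7 belongs with Sox17 and Sox18 to the SoxF factors that are used in both endoderm and endothelium.

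The promoter windows below are printed for *Arhgap22*, *Sphk1* and *Tek*, members whose Dex arrays all lay above their ES arrays in both genotypes, to show the letters that binding motifs of Gata, Sox, Ets, hypoxia and glucocorticoid receptor factors leave there. Each window holds 250 bases before and 50 after a RefSeq transcript start on GRCm38.p6, 5′ to 3′ on the plus strand, and capitals mark the matches to the motifs that were searched on both strands.
Arhgap22, chr14:33216573-33216872: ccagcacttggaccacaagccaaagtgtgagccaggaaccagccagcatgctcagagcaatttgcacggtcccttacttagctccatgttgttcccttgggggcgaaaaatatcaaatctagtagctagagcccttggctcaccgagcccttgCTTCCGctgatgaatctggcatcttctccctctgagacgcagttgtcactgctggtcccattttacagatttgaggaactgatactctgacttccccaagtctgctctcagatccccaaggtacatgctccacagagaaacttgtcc
Sphk1 window 2 of 5, chr11:116531587-116531886: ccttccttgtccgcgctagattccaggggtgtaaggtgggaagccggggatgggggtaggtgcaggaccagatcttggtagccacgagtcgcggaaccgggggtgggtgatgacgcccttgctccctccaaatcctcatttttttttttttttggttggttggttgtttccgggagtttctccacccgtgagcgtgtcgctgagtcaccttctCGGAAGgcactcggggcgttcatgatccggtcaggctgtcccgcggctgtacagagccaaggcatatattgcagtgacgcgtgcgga
Sphk1 window 4 of 5, chr11:116532194-116532493: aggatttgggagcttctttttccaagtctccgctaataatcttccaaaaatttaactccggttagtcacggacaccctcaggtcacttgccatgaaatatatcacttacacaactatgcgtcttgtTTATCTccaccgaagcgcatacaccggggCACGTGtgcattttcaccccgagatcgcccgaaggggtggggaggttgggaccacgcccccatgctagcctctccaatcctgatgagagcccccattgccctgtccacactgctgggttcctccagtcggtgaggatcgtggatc
Tek, chr4:94739039-94739338: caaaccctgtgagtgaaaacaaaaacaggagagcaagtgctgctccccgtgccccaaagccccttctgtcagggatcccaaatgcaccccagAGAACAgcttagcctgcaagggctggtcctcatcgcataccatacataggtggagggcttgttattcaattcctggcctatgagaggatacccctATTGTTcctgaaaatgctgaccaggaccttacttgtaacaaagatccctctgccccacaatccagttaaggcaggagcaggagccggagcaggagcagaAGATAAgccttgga
The letters searched were AACAAT for Sox, AGATAA for Gata factors, CGGAAG for Ets factors, ACGTG for the hypoxia factor core, AGAACA for the glucocorticoid receptor, and GGGATTTCC and GGGTTTCCC for NF-kB. Windows were given for 7 of the 10 members, 13 windows in all. The *Tek* window held a Sox match at position −63, a Gata match at position 37 and a glucocorticoid receptor match at position −158, counted from the transcript start to the first base of the match. *Arhgap22* held 1 Ets match at position −97. *Sphk1* window 2 held 1 Ets match at −37, and window 4 held a Gata match at −124 and a palindromic hypoxia core that reads as ACGTG on both strands at −95 and −94. Its window 1, not printed, held no match. Its windows 3 and 5 overlap windows 2 and 4 and held the same matches at shifted positions. The Dex arrays of *Kdr* also lay above its ES arrays on the brighter probe, by 1.32-fold and 1.14-fold, and its window is not printed. The *Flt1* window held none of these letters. The *Kdr* window held GGGTTTCCC at −119, the first *Vegfa* window a Gata match at −182, the second an ACGTG at −211, and the first *Tal1* window a Gata match at −205 and AGAACA at −229. Among all 32851 windows of 300 bases, AACAAT was found in 10.72%, AGATAA in 11.18%, CGGAAG in 16.85%, ACGTG in 19.62%, AGAACA in 18.97%, GGGATTTCC in 0.323% and GGGTTTCCC in 0.499%, so matches to the 5- and 6-letter motifs are common.

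Signals are given as a percent of the 75th percentile of the same array, and log2 differences are between group means of such values. A gene was read by its brightest probe, and 9 of the 10 members, all but *Tal1*, were tested, since a test needed signal well above background on a whole group of 3 arrays. The call needed a limma adjusted p (Benjamini-Hochberg, over all tested probes) under 0.05 together with a change over 2-fold. Every adjusted p below comes from that fit of all 12 arrays, unless another setting is named. A probe not above background on a whole group has only a bound there, and its difference is then given as "at least" a fold against the lowest signal measured above background on those arrays. The share of spots well above background was 41.7% to 52.3% per array, and none was saturated. The third *Sox7* (+/−) XEN-like array stood apart, with 8.88% and 9.14% of probes over 2-fold from its 2 partners against 1.13% to 3.1% for all other pairs of a group, so results that rest on it are given without it too. *Sox7* (+/−) ES arrays 1 and 2 differed by no more than spots of 1 array do, the source labels number all 3 arrays of that group as replicate 1, and nothing says that arrays of any group came from separate cultures, so p-values measure only the spread between arrays. *Sox7* itself was at 218.9%, 225.7% and 229.9% in *Sox7* (+/−) ES cells and at 491%, 495.7% and 689.6% in *Sox7* (+/−) XEN-like cells, and was not above background on any *Sox7* (−/−) array, at least 24.6-fold lower in ES and at least 72.5-fold lower in XEN-like cells. In bulk RNA, fewer cells of a type and less RNA per cell cannot be told apart.

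Of the 13 endothelial markers, 5 to 10 were well above background on an array, with a summed level of 8868% to 9166% in *Sox7* (+/−) ES, 8709% to 10170% in *Sox7* (+/−) XEN-like, 7443% to 8192% in *Sox7* (−/−) ES and 9334% to 10190% in *Sox7* (−/−) XEN-like cells. Most of that sum was *Egfl7*, at 5912% to 8469% on every array. Of these markers, *Erg* and *Emcn* were above background on no array, and *Tie1* and *Icam2* on 1 array each. *Cldn5* was above background on 3 arrays, *Robo4* on 6, *Pecam1* and *Tek* on 10 and *Cdh5* on 11. *Kdr*, *Flt1*, *Esam* and *Egfl7* were above it on all 12. Among 7 blood markers, 0 to 2 were above background, with a sum of 32.4% to 53.6%. The 8 extraembryonic endoderm markers summed to 29370% to 30020% in *Sox7* (+/−) and 21790% to 23100% in *Sox7* (−/−) ES cells, and to 98820% to 121900% in XEN-like cells, where the genotypes overlap. The 6 embryonic stem markers summed to 21430% to 22590% in *Sox7* (+/−) and 45280% to 48690% in *Sox7* (−/−) ES cells, and to 4907% to 5590% and 7246% to 7936% in the XEN-like cells of these genotypes. They were thus higher in *Sox7* (−/−) cells in both states. In ES cells 3 of the 6 were called higher (50%) and in XEN-like cells 2 of the 6 (33.3%), against 1.96% and 4.17% of all genes tested. None was called lower, against 6.64% and 3.4%. The part of these markers in the genotype differences of the members was not tested.

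**Figure D1:**
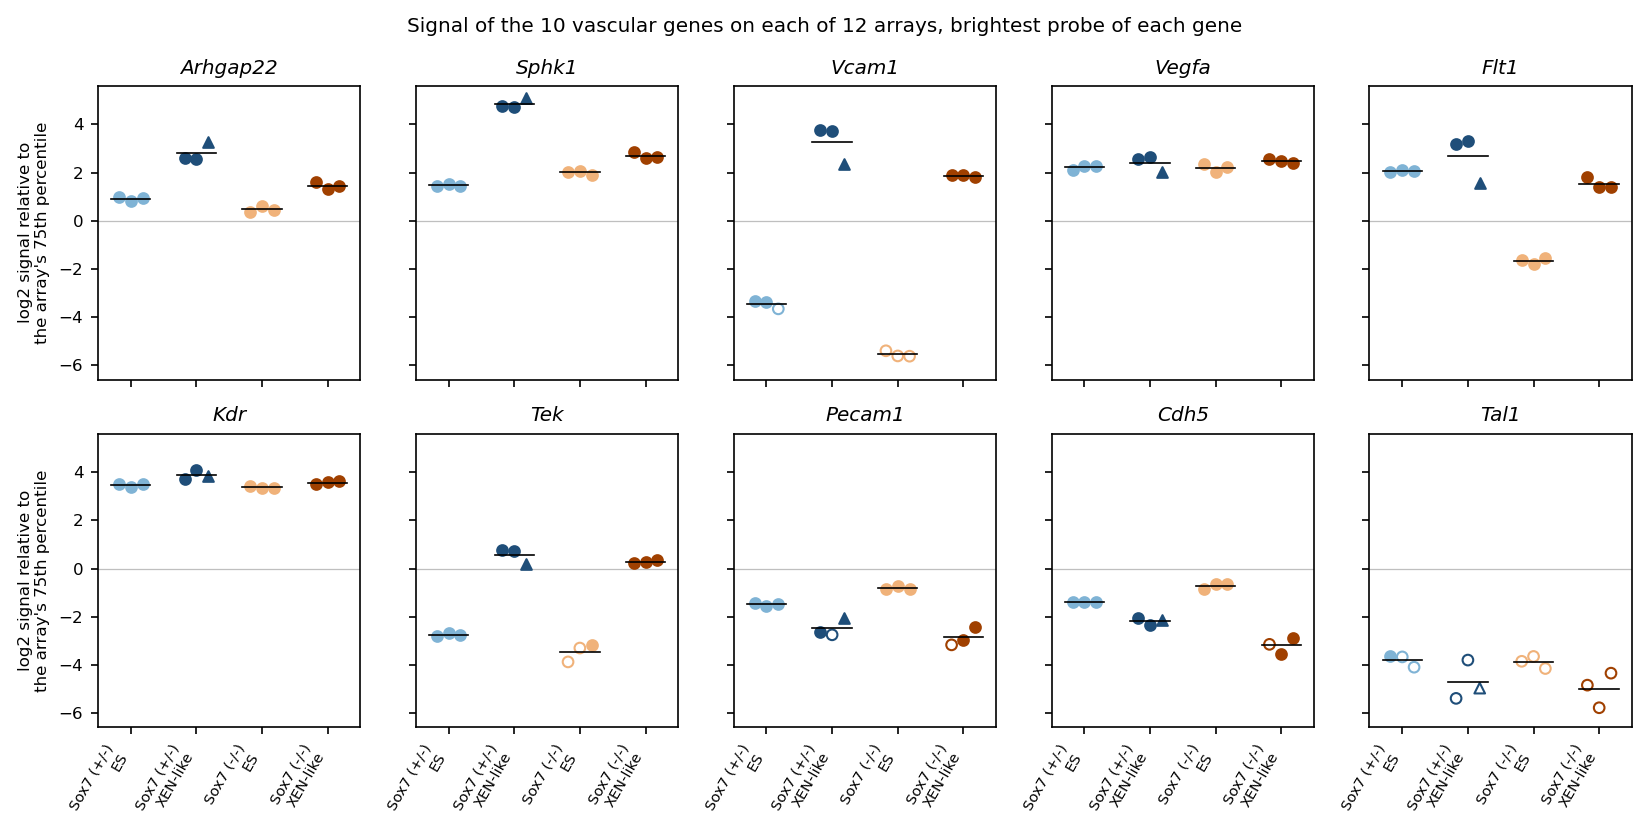
Each panel plots 1 gene's log2 signal relative to the array's 75th percentile on the 12 arrays, by group, with 1 point per array and a line at the group mean. Open points are not well above background, and the triangle is the third *Sox7* (+/−) XEN-like array, which lies below its partners for *Vcam1*, *Flt1*, *Vegfa* and *Tek* and above them for *Arhgap22*, *Sphk1* and *Pecam1*.

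*Sphk1* differed between the genotypes after Dex on both of its probes. Its brighter probe (chr11:116397908-116397967, mm9) was at 273.1%, 285.3% and 271.2% in *Sox7* (+/−) ES cells and at 2710%, 2640% and 3423% in *Sox7* (+/−) XEN-like cells. *Sox7* (−/−) cells were at 412.1%, 422.3% and 376.9% without Dex and at 720.8%, 609% and 636.2% with it. All 4 groups are separate, and the *Sox7* (+/−) XEN-like arrays are far above the rest. Dex raised it 10.5-fold in *Sox7* (+/−) cells and 1.62-fold in *Sox7* (−/−) cells, a difference in response of −2.70 on the log2 scale, and XEN-like cells of the genotypes differed 4.44-fold. Without the third *Sox7* (+/−) XEN-like array that last log2 difference was −2.03 in place of −2.15. A second *Sphk1* probe (chr11:116397591-116397650) followed the same pattern with a correlation of 0.998 over the 12 arrays and a XEN-like difference of −2.19. In ES cells *Sphk1* was higher in *Sox7* (−/−) cells by 0.54 ± 0.11 (log2, SE), under 2-fold, and by 0.33 with slide as a block. This ES value is the XEN-like difference less the difference in response. Both were used in the choice, so it is a description with no test.

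*Arhgap22*, which switches off Rac GTPases, was at 198.2%, 178% and 190.3% in *Sox7* (+/−) ES cells and at 605.9%, 591.2% and 972.2% after Dex. In *Sox7* (−/−) cells it was at 129.4%, 154.8% and 134.5% without Dex and at 303.7%, 246.2% and 269.8% with it. Every Dex array lies above every ES array, and the *Sox7* (+/−) XEN-like arrays lie above the *Sox7* (−/−) ones. Over ES cells, *Sox7* (+/−) cells gained 3.73-fold and *Sox7* (−/−) cells 1.96-fold, and the XEN-like groups differed by −1.37 on the log2 scale, or −1.14 without the third *Sox7* (+/−) array, its highest, and −0.87 in the deposited table. In ES cells *Sox7* (−/−) was lower by 1.36-fold, which was not called and is a description only, as for *Sphk1*. The gene has 1 probe, at chr14:34183060-34183119 (mm9).

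*Vcam1* had the largest Dex response of the members. It was at 9.78%, 9.71% and 7.9% in *Sox7* (+/−) ES cells and at 1371%, 1328% and 510% after Dex, a 107.4-fold rise (log2 6.75, or 7.21 without the third array). In *Sox7* (−/−) ES cells it was not above background on any array, at 2.02% to 2.36%, and after Dex it was at 372.6%, 374.5% and 355.9%, at least 40.2-fold higher. *Sox7* (−/−) XEN-like cells were thus lower than all 3 *Sox7* (+/−) XEN-like arrays. This genotype difference was −1.41 ± 0.31 on the log2 scale with an adjusted p of 0.0069. It is read from the XEN-like arrays whose rise chose the gene and through which its probe passed the filter, so it is no test independent of the choice. Without the third array, which is the low one at 510%, it was −1.88 with an adjusted p of 3.3e-06, while it was −1.42 with an adjusted p of 0.052 within slide 2 and 0.058 with the 6 XEN-like arrays fitted alone, and −0.91 in the deposited table, under 2-fold. The ES difference of −2.09 carried an adjusted p of 0.00051 but no fold, because the *Sox7* (−/−) side is below background and the *Sox7* (+/−) signal does not exceed the bound. It is no independent test either, since the ES arrays entered the rise that chose the gene. A second, dimmer probe was above background on 2 *Sox7* (+/−) XEN-like arrays only, at 26.7% and 23.5%.

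*Vegfa*, the ligand, was read by a pair of probes that disagreed, with a correlation of −0.035 over 12 arrays. The brighter one (chr17:46154387-46154446, mm9, minus strand) stayed between 408.2% and 619.7% on all 12 arrays and passed no call in any comparison. The other (chr17:46162376-46162435), which lies toward the 5′ end on the minus strand, was at 235.8%, 265.9% and 287.7% in *Sox7* (+/−) ES and at 278.8%, 282% and 356.1% in *Sox7* (+/−) XEN-like cells. *Sox7* (−/−) arrays were at 125.2%, 118.1% and 120.7% without Dex and at 157.5%, 117.6% and 125.3% with it. No *Sox7* (−/−) array reached the lowest *Sox7* (+/−) array. That probe was lower in *Sox7* (−/−) cells by 2.29-fold in XEN-like cells (adjusted p 0.00012) and 2.16-fold in ES cells (adjusted p 0.00013), and Dex moved neither genotype's value past the call. The XEN-like call was lost, at under 2-fold, with spike-in scaling (−0.96) and in the deposited table (−0.76). *Vegfa* mRNA is known to be spliced into several forms, and which transcripts each probe reads was not tested.

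*Flt1* was lower in *Sox7* (−/−) ES cells and rose with Dex in that genotype. On its brightest probe (chr5:148373791-148373850, mm9, minus strand) *Sox7* (+/−) ES arrays were at 406.7%, 427.6% and 415.2% and *Sox7* (−/−) ES arrays at 31.9%, 28.4% and 33.8%. After Dex the *Sox7* (+/−) arrays were at 916.5%, 991.3% and 296.9% and the *Sox7* (−/−) arrays at 350.9%, 262.5% and 266.2%. The ES groups are far apart, whereas the XEN-like groups overlap because of the third *Sox7* (+/−) array. *Sox7* (−/−) ES cells were 13.3-fold lower (log2 difference −3.73 ± 0.37, adjusted p 4.2e-05), and −4.14 with an adjusted p of 0.0058 with slide as a block. *Flt1* rose 9.29-fold with Dex in *Sox7* (−/−) cells (adjusted p 2.6e-05) but by 0.63 ± 0.37 in *Sox7* (+/−) cells with an adjusted p of 0.16, or by 1.20 with an adjusted p of 3.3e-05 without the third array. The responses differed by 2.58 ± 0.53 (adjusted p 0.0056), or 2.02 without that array. In XEN-like cells *Sox7* (−/−) was lower by 1.15 ± 0.37 with an adjusted p of 0.037, 0.053 with no filter on dim probes and 0.1 within slide 2, and by 1.71 with an adjusted p of 1.6e-05 without the third array. The call was also lost with spike-in scaling (−0.91, adjusted p 0.12), in the deposited table (−0.70), with slide as a block (adjusted p 0.054) and with the 6 XEN-like arrays fitted alone (adjusted p 0.14). Leaving out any 1 of the other 5 XEN-like arrays ended it too, with adjusted p of 0.054 to 0.11. A second probe (chr5:148446872-148446931), with a correlation of 0.977, gave −4.18 in ES cells, −1.53 in XEN-like cells and 2.65 for the difference in response, all called, although its XEN-like adjusted p was 0.066 within slide 2 and 0.079 with the 6 XEN-like arrays fitted alone. The third probe was above background on no array.

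*Kdr*, the main VEGF receptor of endothelium, was also read by probes that disagreed, with a correlation of 0.044. The brighter probe (chr5:76330395-76330454, mm9, minus strand) was at 1020% to 1706% on the 12 arrays and passed no call, with a Dex response of 1.32-fold in *Sox7* (+/−) cells. The other (chr5:76329309-76329368), printed 10 times on each array, was at 37.5%, 41.5% and 39.1% in *Sox7* (+/−) ES cells and at 15.9%, 17.3% and 18.5% in *Sox7* (−/−) XEN-like cells. It was not above background in the remaining groups, at 8.55% to 9.13% in *Sox7* (+/−) XEN-like and at 3.3% to 3.5% in *Sox7* (−/−) ES cells. On this probe *Kdr* was at least 3.59-fold lower after Dex in *Sox7* (+/−) cells (adjusted p 4e-09) and at least 1.88-fold higher after Dex in *Sox7* (−/−) cells (adjusted p 1.7e-09). It was at least 4.3-fold lower in *Sox7* (−/−) than in *Sox7* (+/−) ES cells (adjusted p 3.3e-09). With normexp the fitted responses of this probe, −0.77 and 0.65, were under 2-fold, as was that of *Sox7* (−/−) cells in the deposited table (0.74). The genotypes thus responded in opposite directions on the 10-spot probe, where the size of the difference in response is not given because 2 of the 4 groups are below background. On the brighter probe the responses differed by −0.21 ± 0.14 (adjusted p 0.29, 95% interval −0.51 to 0.10). Which probe follows the *Kdr* mRNA was not tested, and the direction for *Kdr* depends on the probe.

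**Figure D2:**
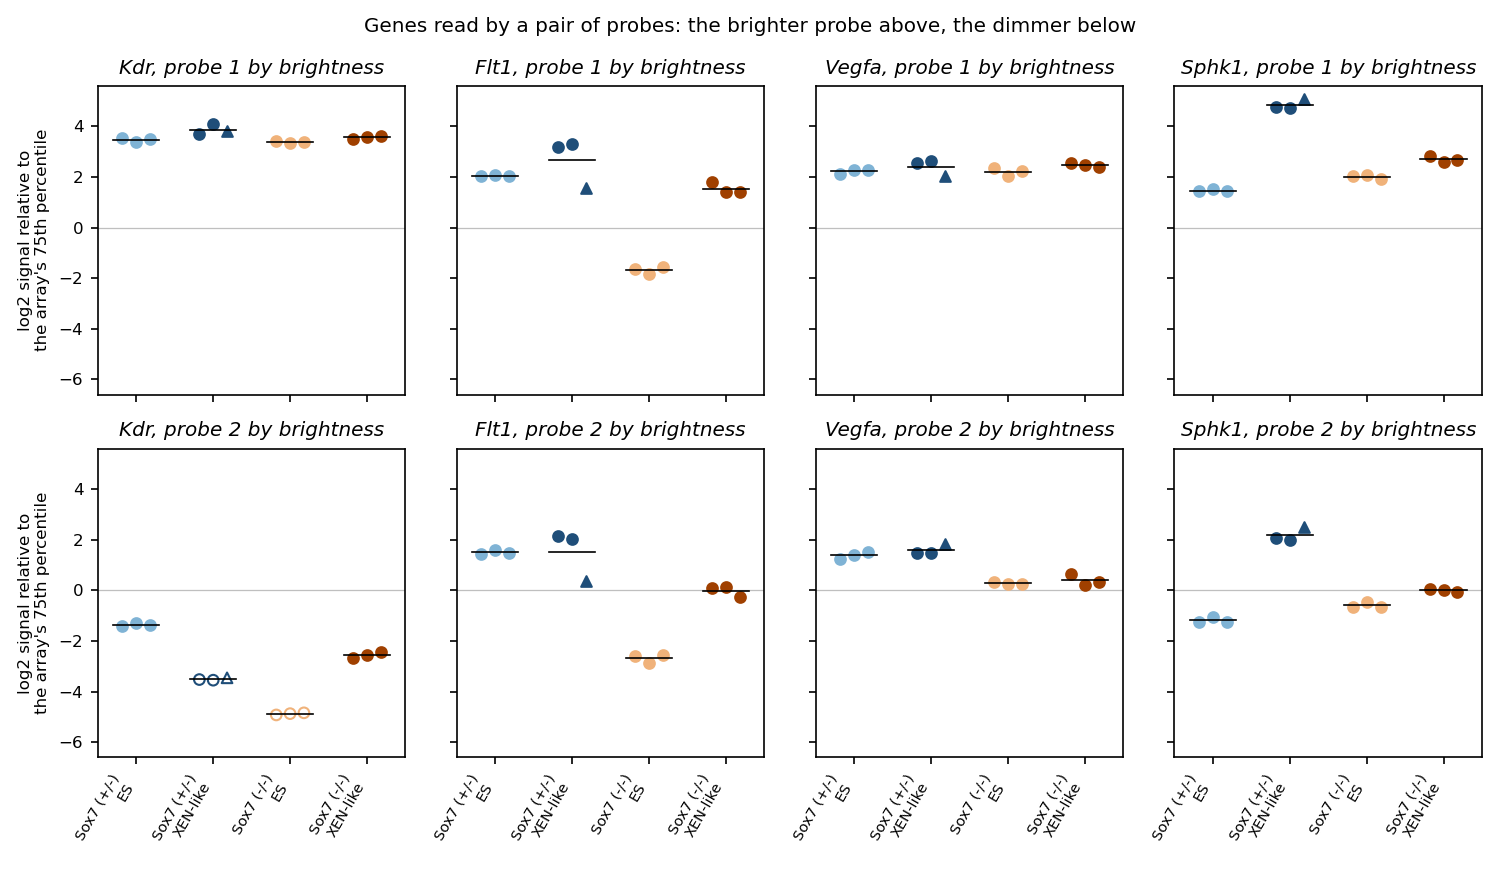
The log2 signal relative to the array's 75th percentile on 12 arrays is plotted for the brighter (above) and dimmer (below) probe of 4 genes, with points, triangle and lines as in the plot of the members by array. The probes of *Flt1* and of *Sphk1* show the same order of groups, while the dimmer *Kdr* and *Vegfa* probes separate groups that the brighter probes do not.

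*Tek* rose in both genotypes. It was at 14.4%, 15.8% and 14.6% in *Sox7* (+/−) ES cells and at 169.9%, 164.4% and 112.9% after Dex. In *Sox7* (−/−) cells it was at 6.8%, 10.1% and 11% without Dex, above background on 1 array, and at 119%, 120.9% and 126.7% with it. Dex and ES arrays do not overlap in either genotype, and the XEN-like genotypes do. The rise was 9.85-fold in *Sox7* (+/−) (adjusted p 1.7e-07) and 13.4-fold in *Sox7* (−/−) cells (adjusted p 5e-08). The responses differed by 0.44 ± 0.27 (adjusted p 0.25, 95% interval −0.16 to 1.05), and XEN-like cells by −0.26 (adjusted p 0.31, interval −0.69 to 0.16).

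*Pecam1* and *Cdh5*, the junction proteins, were lower after Dex in both genotypes. *Cdh5* was at 37.8%, 38.4% and 38.4% in *Sox7* (+/−) ES and at 24.3%, 19.7% and 23% in *Sox7* (+/−) XEN-like cells, and at 55%, 64.7% and 65% in *Sox7* (−/−) ES and 11.3%, 8.66% and 13.4% in *Sox7* (−/−) XEN-like cells. Without Dex the *Sox7* (−/−) arrays are the highest and with Dex the lowest. The fall was 1.72-fold in *Sox7* (+/−) cells (adjusted p 0.001, under the fold threshold) and 5.61-fold in *Sox7* (−/−) cells (adjusted p 1.5e-07), and the responses differed by −1.71 ± 0.21 (adjusted p 0.00026), a call that was lost in the deposited table (−0.80, adjusted p 0.014). *Sox7* (−/−) XEN-like cells were 2.04-fold lower (adjusted p 0.00064), at the threshold, and this was lost in the deposited table (−0.29), under quantile normalization (−0.87), under spike-in scaling (−0.78) and with normexp (−0.59). It was also lost without *Sox7* (+/−) XEN-like array 1 (−0.96) and without *Sox7* (−/−) XEN-like array 2 (−0.86).

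*Pecam1* was at 36.8%, 34% and 36.6% in *Sox7* (+/−) ES cells and at 16%, 14.8% and 23.9% after Dex. *Sox7* (−/−) cells were at 56.2%, 60.5% and 55.5% without Dex and at 11.1%, 12.9% and 18.8% with it. ES arrays lie above all XEN-like arrays in both genotypes, while the XEN-like genotypes overlap. The fall was 2.003-fold in *Sox7* (+/−) (log2 −1.002 ± 0.205, adjusted p 0.0017) and 4.12-fold in *Sox7* (−/−) cells (adjusted p 8.9e-06). The difference in response was −1.04 ± 0.29 (adjusted p 0.024), and this call was lost without the third *Sox7* (+/−) XEN-like array (−0.83) and, at −0.88 to −1.01, without *Sox7* (+/−) ES array 2, *Sox7* (−/−) ES array 2 or *Sox7* (−/−) XEN-like array 1 or 2. It was lost as well with spike-in scaling (−0.65, adjusted p 0.08), in the deposited table (−0.41, adjusted p 0.27), with quantile normalization (−0.99), with normexp (−0.72), and with outlier spots kept (−0.64, adjusted p 0.36). The *Sox7* (+/−) fall, which lies at the threshold, was lost without *Sox7* (+/−) ES array 1 or 3 or XEN-like array 1 or 2, at −0.87 to −0.99, and with quantile normalization (−0.95), with normexp (−0.42) and in the deposited table (−0.87). XEN-like cells of the genotypes differed by −0.36 (adjusted p 0.2).

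*Tal1*, a regulator of blood and endothelial precursors, was above background on 1 of 12 arrays, a *Sox7* (+/−) ES array at 8.09%. The other 11 values lay between 1.82% and 7.96% and were not tested.

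**Figure D3:**
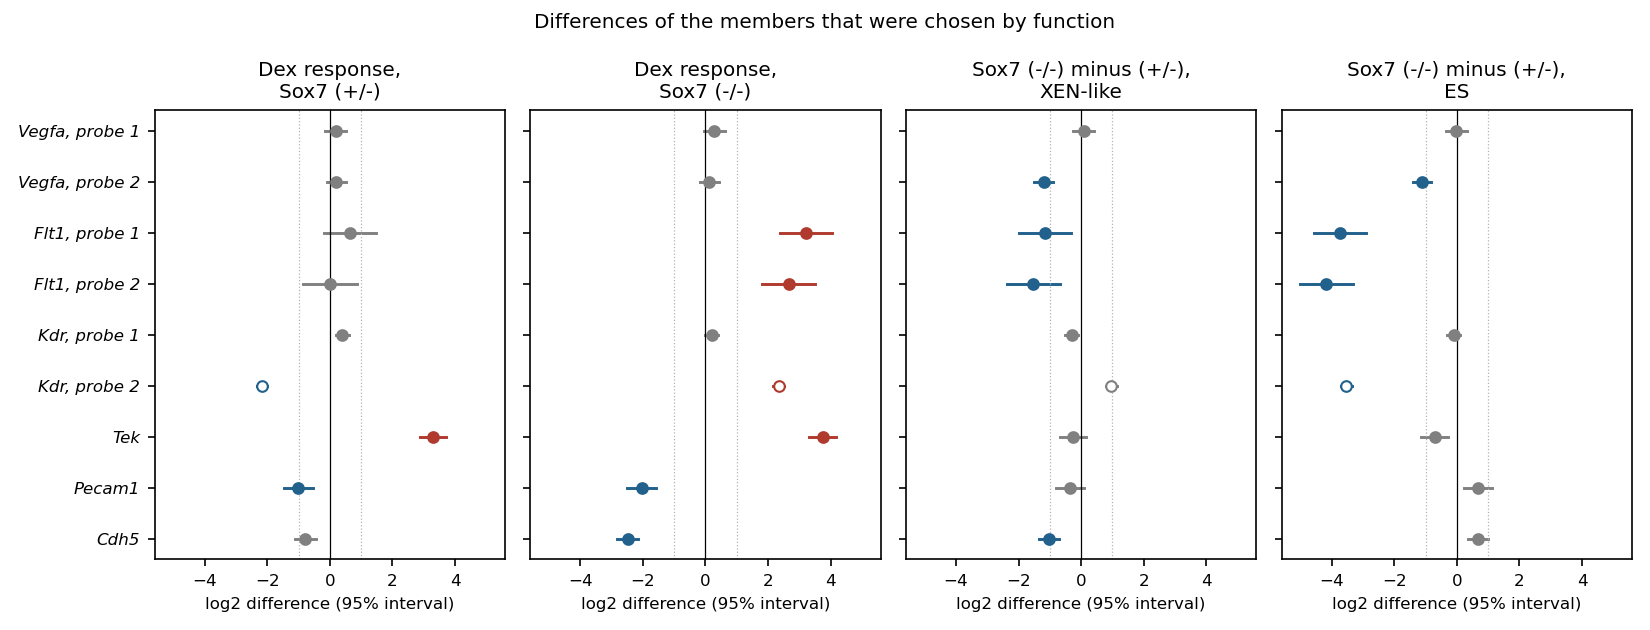
The log2 difference with its 95% interval is plotted for the tested members that were chosen by function, for the Dex response of each genotype and for the genotype difference in either cell state. Red is called higher, blue called lower, grey not called, open points have a group below background, and dotted lines are at 2-fold. *Flt1* and the dimmer *Kdr* probe were lower in *Sox7* (−/−) ES cells, and *Tek* rose in both genotypes.

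Of the 9 tested members, 4 were called higher and 1 lower after Dex in *Sox7* (+/−) cells, against 10.9% and 14.1% of all 18991 genes tested. In *Sox7* (−/−) cells 3 were higher (*Vcam1*, *Flt1*, *Tek*) and 2 lower (*Pecam1*, *Cdh5*), against 14.5% and 14.2% of all genes. For XEN-like cells, 0 members were called higher in *Sox7* (−/−) and 5 lower (*Arhgap22*, *Sphk1*, *Vcam1*, *Flt1*, *Cdh5*), against 4.17% and 3.4%. In ES cells 0 were higher and 2 lower (*Vcam1*, *Flt1*), against 1.96% and 6.64%. The ES call of *Vcam1* has no measured fold, and its probe passed the filter only through XEN-like arrays, so nothing is read from it. The response differed in 4 members, with *Flt1* called higher in *Sox7* (−/−) and *Sphk1*, *Pecam1* and *Cdh5* lower, against 7.06% and 3.15%. Nothing is read from these counts where a member was chosen by the same contrast. Median log2 differences of the 9 members were 0.63, 0.70, −1.02, −0.10 and −0.21 in these 5 comparisons, and 0.16, 0.07, 0.01, 0.11 and −0.10 over all genes tested. The member medians include *Arhgap22*, *Sphk1* and *Vcam1*, which were chosen by their values, so nothing is read from these medians either. The XEN-like count was 3 with spike-in scaling, 3 within slide 2 and 1 in the deposited table. The median of all tested probes in that comparison moved from 0.00 to 0.25 and 0.34 with the first and last of these. In the Dex response of *Sox7* (+/−) cells it moved from 0.15 to −0.33 and −0.23. All 3 *Sox7* (−/−) ES arrays lay on slide 1 and all 6 *Sox7* (+/−) arrays on slide 2, so the ES comparison has no value within a slide, and its slide-blocked values rest on the *Sox7* (−/−) XEN-like arrays, 1 of which was on slide 1.

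The genes whose 12-array pattern was most like each member's were found by Pearson's r over the 12 arrays, which fall into 4 groups and so weigh mostly the group means. *Sphk1* was closest to *Doc2b* (0.991), *Apbb3* (0.989) and *Rnf149* (0.983). *Vcam1* was closest to *Rnf24* and *Epas1* (0.998 each) besides 1 unnamed probe, and *Tek* to *Lamc1* (0.996) and *Dock5* (0.995). *Flt1* was closest to *Adamts1* (0.987), *Sgms1* (0.983) and *Ankrd1* (0.981), and *Arhgap22* to *Fam65b* (0.984) and *Suv39h1* (0.98). *Cdh5* was closest to *Pcyt1b* (0.986), *Pecam1* to *Gm6710* (0.987) and *Rrn3* (0.986), *Kdr* to *Ptpn5* (0.98) among named genes, and *Vegfa*, on its flat brighter probe, to *Vps54* (0.933) and *Serhl* (0.92).

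Around these members, 10 lists of 90 vascular genes were read in the same way, and 63 were tested. With Dex in *Sox7* (+/−) cells 15 rose (23.8%) and 19 fell (30.2%), against 10.9% and 14.1% of all genes tested, and in *Sox7* (−/−) cells 17 rose (27%) and 19 fell (30.2%), against 14.5% and 14.2%. In *Sox7* (−/−) XEN-like cells 6 were higher (9.52%) and 7 lower (11.1%), against 4.17% and 3.4%, and in *Sox7* (−/−) ES cells 4 were higher (6.35%) and 11 lower (17.5%), against 1.96% and 6.64%. The responses differed in 18, with 11 higher (17.5%) and 7 lower (11.1%) in *Sox7* (−/−) cells, against 7.06% and 3.15%. The share called was thus above that of all genes in each direction of each comparison, as a description with no test, since the lists were chosen with earlier results known. The median over the 63 genes pooled was 0.17, 0.24, −0.03, −0.05 and −0.02 in the same 5 comparisons. That median joins lists that went opposite ways. In *Sox7* (+/−) cells the median Dex response was −2.19 over the surface and junction list, −1.56 over the ligands and 2.44 over the receptors, and in *Sox7* (−/−) cells it was 1.77 over the transcription factors and −2.14 over the integrin partners of Vcam1.

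Of 6 tested ligands, 3 fell (50%) and none rose with Dex in *Sox7* (+/−) cells, against 14.1% and 10.9% of all genes tested. In *Sox7* (−/−) cells 2 fell (33.3%) and 1 rose (16.7%), against 14.2% and 14.5%. *Vegfc*, the lymphatic growth factor, was at 386.4%, 398.5% and 353.7% in *Sox7* (+/−) ES and 28.2%, 31.4% and 15.4% after Dex, and at 844.3%, 905% and 827.3% in *Sox7* (−/−) ES and 9.41%, 12.47% and 10.73% after Dex. It fell by 3.99 and by 6.31 on the log2 scale, a difference in response of −2.32 (adjusted p 0.00055). The angiogenic peptide gene *Apln* went the other way, from below background to 50.6%, 48.8% and 44.1% in *Sox7* (−/−) cells, at least 5.22-fold higher, while *Sox7* (+/−) arrays were at 20.5% to 25.7% without and 9.11% to 14.9% with Dex. *Pdgfb*, which recruits pericytes, fell by 2.98 in *Sox7* (+/−) cells, from 230.6%, 236% and 246.3% to 31.7%, 36.1% and 23.8%, and its response differed by 3.22 (adjusted p 1.9e-06), with *Sox7* (−/−) arrays at 68.3% to 88.8% throughout. The lymphatic ligand gene *Figf* fell in both, at least 2.39-fold and at least 2.08-fold.

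All 3 tested receptors of the receptor list were called in both genotypes, 66.7% higher and 33.3% lower in each. Of all genes tested, 10.9% and 14.1% were called in *Sox7* (+/−) and 14.5% and 14.2% in *Sox7* (−/−) cells. The co-receptor *Nrp1*, below background in ES cells, was at 76.5% to 85.1% in *Sox7* (+/−) XEN-like cells, at least 11.9-fold higher, and at 52.1% to 71.2% in *Sox7* (−/−) XEN-like cells, at least 6.74-fold higher. *Nrp2* rose by 2.44 and 2.70 on the log2 scale, and *Pdgfrb* was at least 1.33-fold and at least 1.86-fold lower. *Tie1*, *Flt4* and *Aplnr* did not pass the filter.

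In the sphingosine 1-phosphate list the transporter *Spns2*, which exports the lipid that Sphk1 makes, rose in both genotypes, from 258.9%, 265% and 273.5% to 1305%, 1196% and 1067% in *Sox7* (+/−) cells and from 59.8%, 60.2% and 43% to 1321%, 1741% and 1538% in *Sox7* (−/−) cells. XEN-like arrays of the genotypes are thus close, and ES arrays are not. Its log2 response was 2.16 and 4.83, a difference of 2.67 ± 0.21 (adjusted p 1.2e-05), and *Sox7* (−/−) ES cells were lower by 2.31 (adjusted p 1.9e-06). The receptor gene *S1pr1* was at 57.4% to 64.6% in *Sox7* (+/−) ES cells and at 9.6% to 17.7% on the 9 other arrays, so it fell by 1.97 with Dex in *Sox7* (+/−) cells and was lower by 2.47 in *Sox7* (−/−) ES cells. The phosphatase gene *Sgpp1* rose by 1.83 in *Sox7* (+/−) cells, and *Sox7* (−/−) XEN-like cells were lower by 1.16 (adjusted p 0.0036). The lyase gene *Sgpl1* rose by 1.60 in *Sox7* (−/−) cells. Of the 6 tested genes, 2 rose (33.3%) and 1 fell (16.7%) in *Sox7* (+/−) cells, against 10.9% and 14.1% of all genes tested. In *Sox7* (−/−) cells 2 rose (33.3%) and none fell, against 14.5% and 14.2%. *Sphk2*, the other kinase, was at 645.7% to 905% on all arrays and was not called.

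Of 13 tested surface and junction genes, 8 fell and 1 rose in *Sox7* (+/−) cells and 7 fell and 1 rose in *Sox7* (−/−) cells, so 61.5% and 53.8% fell, against 14.1% and 14.2% of all genes, and 7.69% rose in each, against 10.9% and 14.5%. *Cd34* fell at least 9.46-fold and at least 19.1-fold, the guidance receptor gene *Robo4* at least 7.92-fold and at least 30.9-fold, and *Mmrn2* by 4.30 and 4.29 on the log2 scale. *Procr*, the protein C receptor, rose by 3.14 and 2.61. *Esam* fell by 2.53 in *Sox7* (+/−) cells and was higher by 1.18 in *Sox7* (−/−) XEN-like cells (adjusted p 2.3e-05). *Robo4* was at 80.3% to 245.1% in ES cells of both genotypes.

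All 9 tested transcription factors were called in *Sox7* (−/−) cells, 5 higher and 4 lower, and 6 in *Sox7* (+/−) cells, 4 higher and 2 lower. These are 55.6% and 44.4% in *Sox7* (−/−) cells, against 14.5% and 14.2% of all genes, and 44.4% and 22.2% in *Sox7* (+/−) cells, against 10.9% and 14.1%. *Gata2*, a blood and endothelial factor, rose by 3.76 and 3.24 and was lower by 1.52 in *Sox7* (−/−) XEN-like cells (adjusted p 0.00011), at 76.5%, 99.9% and 96.5% against 247.5%, 223.2% and 312.4%. Before Dex it was already lower by 1.001 in *Sox7* (−/−) ES cells (adjusted p 0.00092). *Klf2*, the flow-responsive factor that also belongs to the ES network, changed by −5.63 and −7.73. *Sox17*, the other SoxF factor tested, rose by 2.46 and 2.40, and *Hhex* by 2.06 in *Sox7* (−/−) cells with a difference in response of 1.14 (adjusted p 0.0016). *Erg*, *Fli1* and *Sox18* did not pass the filter.

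Of the 3 tested integrin partners of Vcam1, *Itgb1* rose by 1.98 in *Sox7* (−/−) cells, *Itgb7* changed by −4.51 and −4.15, and *Itga9* fell by 2.14 in *Sox7* (−/−) cells and was higher by 2.36 in *Sox7* (−/−) ES cells. *Itga9* was at 378.2%, 362.5% and 365.1% in *Sox7* (−/−) ES cells and at 63.4% to 184.9% on all other arrays, a difference in response of −3.01 (adjusted p 2.4e-05). *Itga4* was above background on no array. Of the 3 tested partners, 1 rose (33.3%) and 2 fell (66.7%) in *Sox7* (−/−) cells, against 14.5% and 14.2% of all genes tested. In *Sox7* (+/−) cells none rose and 1 fell (33.3%), against 10.9% and 14.1%.

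In the hypoxia list 3 of 10 genes rose in *Sox7* (+/−) cells (30%) and 2 in *Sox7* (−/−) cells (20%), against 10.9% and 14.5% of all genes tested. None fell, against 14.1% and 14.2%. *Epas1* (HIF-2α), a regulator of *Vegfa* and *Flt1* in endothelium, rose by 4.36 and 4.56, and *Egln3* by 2.37 and 1.90. No gene of this list was called between the genotypes in XEN-like cells, against 4.17% higher and 3.4% lower of all genes tested. With shares that small, nothing is read from a count of 0 among 10 genes. In *Sox7* (−/−) ES cells *Epas1* was called lower, by 1.008 (adjusted p 0.00022). That is 10% of the list lower and 0% higher, against 6.64% and 1.96%. Of 8 Notch and ephrin genes, 2 rose (25%) and 3 fell (37.5%) in *Sox7* (+/−) cells, against 10.9% and 14.1% of all genes tested. In *Sox7* (−/−) cells 1 rose (12.5%) and 3 fell (37.5%), against 14.5% and 14.2%. *Notch4* was at least 9.31-fold lower in *Sox7* (+/−) and lower by 4.09 in *Sox7* (−/−) cells, and *Jag1* was lower by 3.46 and 3.06. *Kit*, of the blood progenitor list, rose by 2.19 and 2.17, without another called gene of the 3 tested in either response. That is 33.3% in each genotype, against 10.9% and 14.5% of all genes tested. *Flna*, a filamin that binds the Arhgap22 relative Arhgap24, did not respond past the call, and *Sox7* (−/−) cells were lower by 1.26 in XEN-like (adjusted p 4.3e-06) and by 1.03 in ES cells (adjusted p 1.1e-05), at 2285% to 2407% against 5087% to 6208% in XEN-like cells. *Rac1* rose by 1.06 in *Sox7* (−/−) cells.

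**Figure D4:**
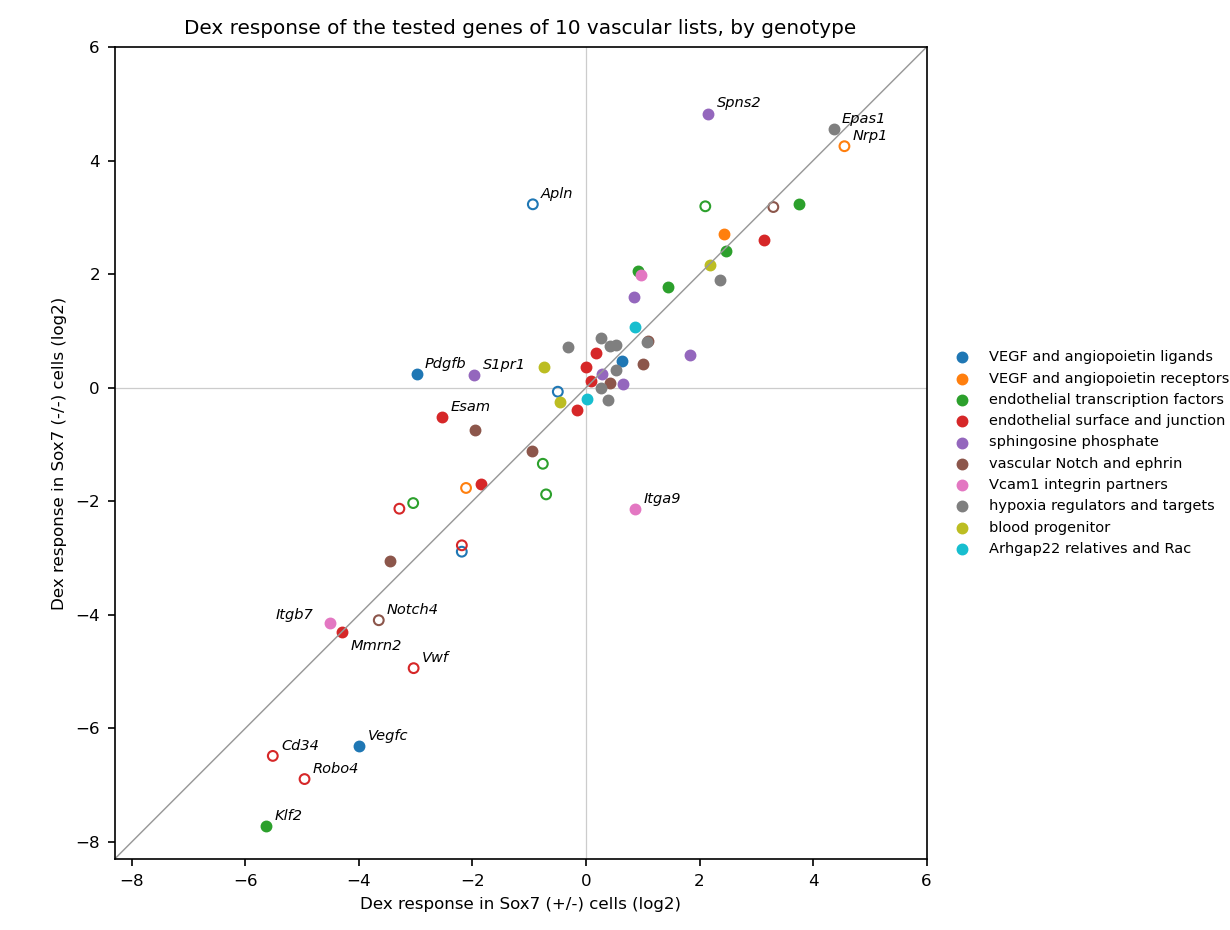
The log2 Dex response in *Sox7* (−/−) cells is plotted against that in *Sox7* (+/−) cells for the 63 tested genes of the 10 lists, coloured by list, with the line of equal response. Open points mark genes that a whole group left below background, so their position is no measured fold. *Spns2*, *Apln*, *Pdgfb* and *S1pr1* lie above the line and *Itga9*, *Vegfc* and *Vwf* below it.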

How the data were processed

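Total RNA of 12 samples, 3 per group, was labelled with Cy3 by the authors, who used Agilent mouse arrays of 1 colour. The intensity values deposited for each array are Agilent Feature Extraction output (version 10.7.3.1, per the submitters' processing notes), in which the processed signal is background-subtracted within the array and not scaled between arrays. The deposited table of intensity values lay within 0.498% of the mean spot signal of each array, and it was used as an alternative.

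Processed signals were divided by the 75th percentile of their array (251.8 to 413.8 units) and put on the log2 scale, spots of a probe were averaged, and 0.234% to 0.320% of spots were left out for outlier flags. Of 55681 probes (59305 spots besides controls), 25938 were tested with limma 3.58.1 in R 4.3.3, in 1 fit of 12 arrays with 1 mean per group. It had 1.991 prior degrees of freedom, and the Benjamini-Hochberg adjustment was over the tested probes. A gene, 18991 in all, was read by its brightest probe, with other probes of members beside it. The procedure was tested on simulated data with independent arrays, no slide effect and no array that stood apart. That test does not cover these features of the real arrays. Members and lists were chosen with earlier results of these data known. Named were all members and, for each list and comparison, the 2 called genes with the largest rise and fall whose groups did not overlap, a selection of which is printed. Deviations of same-numbered arrays correlated between −0.051 and 0.126 over 18 pairs (3 over 0.1), so replicate numbers were not treated as pairs. Slide and scan split the arrays in the same way. Probe positions are those of the files, on mm9, and no genome was used. The alternatives were normexp (offset 50), quantile, spike-in (8 probes) and median scaling, other probe filters, an intensity trend, the mean of a gene's probes, slide and replicate blocks, within-slide fits and leaving out each array. Keeping outlier spots and averaging *Sox7* (+/−) ES arrays 1 and 2 were added after seeing the data. The number of arrays limits the precision.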

Additional observations from a re-analysis of the deposited data

Results flagged for a closer look

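The Dex response differed between the genotypes, by the test of the difference itself (limma, *Sox7* (−/−) minus *Sox7* (+/−), log2), for *Flt1*, *Cdh5* and *Pecam1* and for the dimmer probe of *Kdr*. The differences were 2.58 and 2.65 for the *Flt1* probes, −1.71 for *Cdh5* and −1.04 for *Pecam1*. The *Cdh5* call was lost in the deposited table (−0.80), and the *Pecam1* call was lost there (−0.41), with spike-in scaling (−0.65), with quantile normalization (−0.99) and with normexp (−0.72), besides some fits that left out 1 array. *Sphk1*, which was chosen by this contrast, had −2.70 and −2.79 on its probes, as a description. The 10-spot *Kdr* probe had a fitted value of 4.50, which is no measured fold because 2 of its 4 groups were below background, and the brighter *Kdr* probe gave −0.21.

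Among the list genes the response was higher in *Sox7* (−/−) cells for *Apln* (4.17), *Pdgfb* (3.22), *Spns2* (2.67), *S1pr1* (2.18), *Esam* (2.01), *Jag2* (1.20), *Cldn5* (1.15), *Hhex* (1.14), *Gata1* (1.11), *Nr2f2* (1.09) and *Slc2a1* (1.04). It was lower for *Itga9* (−3.01), *Vegfc* (−2.32), *Klf2* (−2.09), *Robo4* (−1.94), *Vwf* (−1.90), *Sgpp1* (−1.25) and *Lyl1* (−1.18). *Apln*, *Nr2f2*, *Cldn5*, *Robo4* and *Vwf* were below background on every array of at least 1 group, so their values are no measured fold.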

How the results depend on the processing

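Of 34 called member values (65 probe and comparison pairs), none changed direction in any of 28 alternatives. These include values by which *Arhgap22*, *Sphk1* and *Vcam1* were chosen. All alternatives reuse the same arrays, where a called change over 2-fold could hardly change sign, so this is no independent support. Of 1359 alternative values 1257 kept direction and call, 50 lost and 16 gained a call, and 36 changed sign, none of them called as reported. The replicate block changed no call of a member value (for *Vcam1* in XEN-like cells it gave −1.41). Averaging *Sox7* (+/−) ES arrays 1 and 2 ended the calls of *Flt1* in XEN-like cells (adjusted p 0.052) and of the *Pecam1* difference in response (0.051), and keeping outlier spots that of *Pecam1* (0.36). The causes were not tested, besides the fewer arrays or genes of some settings. *Tal1*, the dimmer *Kdr* probe and *Vcam1* in ES cells are limited by their low signal over background.

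Members called in XEN-like cells, 5 as reported, were 3 with spike-in scaling, 3 with only the arrays compared, 3 within slide 2 and 1 in the deposited table, and 3 to 5 leaving out 1 array, with 3 without *Sox7* (+/−) XEN-like array 1 and without *Sox7* (−/−) XEN-like array 2. In ES cells 1 was called in place of 2 with normexp and in the deposited table, and 2 in place of 4 differed in response in the deposited table. With only probes above background on all arrays, members called were 2, 1, 3, 1 and 2 and list genes called 18, 18, 6, 8 and 10, in the order of the 5 comparisons of the report. List genes called in XEN-like cells, 13, were 3 with normexp and 6 in the deposited table, and in ES cells, 15, were 8 and 8.

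These uncalled values changed sign. For the Dex response in *Sox7* (+/−) cells, the second *Flt1* probe gave −0.063 with normexp, −0.10 with quantile and −0.10 with median scaling, −0.47 with spike-ins, −0.43 in the deposited table and −0.30 to 0.58 leaving out 1 array. With spike-ins and in the deposited table, the dimmer *Vegfa* probe gave −0.27 and −0.18, the brighter one −0.29 and −0.28, and the brighter *Kdr* probe −0.080 and −0.042. For the difference in response these settings gave 0.31 and 0.28 for the dimmer *Vegfa* probe and 0.19 and 0.20 for the brighter *Kdr* probe, and *Vcam1* was at −0.71 with normexp and −0.28 in the deposited table. The dimmer *Vegfa* probe was at 0.17 with slide as a block, and leaving out 1 array gave it −0.211 to 0.03 and the brighter probe −0.089 to 0.203. In XEN-like cells the deposited table gave 0.081 for *Pecam1*, 0.11 for *Kdr* and 0.19 for *Tek*, and brighter *Vegfa* was at −0.006 with quantile normalization and −0.106 to 0.187 leaving out 1 array. In ES cells brighter *Vegfa* was between −0.092 and 0.072 leaving out 1 array. The mean of a gene's probes gave −0.88, 0.33 and 2.15 (called) for *Kdr* in the Dex response of *Sox7* (+/−) cells, XEN-like cells and the difference in response, and −0.56 for *Vegfa* in XEN-like cells.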
